A study of Homo sapiens with 6 samples.

Results

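SNAI2, TWIST2, PRRX1, VIM and S100A4 are 5 genes of the mesenchymal cell state, 3 that encode transcription factors and 2 that encode proteins typical of the cells those factors produce. They were chosen by name from 14884 genes measured on Affymetrix HuGene 2.0 arrays, after their differences between the groups of this study were known. Where a gene had several probe sets, the one with the highest mean over all 6 arrays stood for it. All 5 genes were measured, with 7 of the 16098 probe sets that carried a gene symbol. Because the genes were picked with their results in view, the differences and adjusted p-values below describe them and are not independent evidence of a direction.

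The arrays held RNA of Hs578T cells, a line established from a human breast tumour, with spindle-shaped cells and no oestrogen receptor. The siControl group (3 arrays) had received a non-targeting small interfering RNA, and the siCSRP2 group (3 arrays) an interfering RNA against CSRP2, which encodes an actin-bundling LIM domain protein. Both groups were transfected with a lipid reagent, kept in DMEM that held 10% fetal serum plus insulin at 0.01 mg/ml, replated 24 h after transfection and harvested 48 h later, so every culture had been transfected and none was untreated. All arrays came from 1 cell line, and how many interfering RNAs were used is not stated in the labels.

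In the epithelial-to-mesenchymal transition, epithelial cells loosen their junctions and take on the shape and motility of connective tissue cells. The SNAIL, TWIST, ZEB and PRRX families of transcription factors drive this programme: SNAIL and ZEB proteins bind E-box sequences and shut down epithelial genes, while TWIST and PRRX proteins promote mesenchymal genes. In breast tissue SNAI2 is also known as a factor of basal and stem-like cells. Vimentin, the product of VIM, forms the intermediate filaments of mesenchymal cells, and S100A4, also called fibroblast-specific protein, is a calcium-binding protein that acts on non-muscle myosin.

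The promoter windows of the members are shown because E-boxes are the sequences that SNAIL and TWIST proteins recognise, and because the 4 genes printed lay lower together in siCSRP2. Each window runs from 250 bases before the annotated start of the gene to 50 after it, 5′ to 3′ on the strand of the gene, from RefSeq (GRCh38.p14). They are chr2:238847835-238848134 (plus strand) for TWIST2, chr1:170663881-170664180 (plus) for PRRX1, chr10:17227991-17228290 (plus) for VIM and chr1:153545757-153546056 (minus) for S100A4. Capitals mark matches, on either strand, to any motif searched: the SNAIL and ZEB type E-box CACCTG, the general E-box CANNTG (which contains the former), the AP-1 site TGANTCA, the TEAD site GGAATG, the SP1 site GGGCGG, the TATA box TATAAA and the SRF CArG box. The SNAI2 window was not used here.
TWIST2: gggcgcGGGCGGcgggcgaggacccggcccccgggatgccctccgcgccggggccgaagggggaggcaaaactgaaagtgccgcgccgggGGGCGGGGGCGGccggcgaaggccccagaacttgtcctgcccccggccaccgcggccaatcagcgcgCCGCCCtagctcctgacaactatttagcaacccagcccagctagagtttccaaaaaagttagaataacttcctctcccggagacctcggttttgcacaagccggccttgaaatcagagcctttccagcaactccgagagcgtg
PRRX1: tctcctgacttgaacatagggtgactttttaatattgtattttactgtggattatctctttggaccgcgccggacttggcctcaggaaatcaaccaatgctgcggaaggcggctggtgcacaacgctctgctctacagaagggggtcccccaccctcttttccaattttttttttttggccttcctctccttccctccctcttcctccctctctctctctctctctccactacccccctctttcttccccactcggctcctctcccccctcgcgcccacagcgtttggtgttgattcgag
VIM: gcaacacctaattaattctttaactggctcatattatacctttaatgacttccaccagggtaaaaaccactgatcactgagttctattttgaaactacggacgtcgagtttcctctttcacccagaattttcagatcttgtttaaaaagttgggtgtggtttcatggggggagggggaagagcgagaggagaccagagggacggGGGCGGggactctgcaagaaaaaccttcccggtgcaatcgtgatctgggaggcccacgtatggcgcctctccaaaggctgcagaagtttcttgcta
S100A4: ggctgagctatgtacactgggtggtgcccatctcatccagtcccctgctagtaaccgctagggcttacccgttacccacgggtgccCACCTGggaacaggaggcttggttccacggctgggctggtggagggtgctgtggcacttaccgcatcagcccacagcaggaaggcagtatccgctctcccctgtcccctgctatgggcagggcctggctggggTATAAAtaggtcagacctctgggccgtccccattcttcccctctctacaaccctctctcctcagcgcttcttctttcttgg

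Of the 4 windows only that of S100A4 held an E-box, a CACCTG with its first base at -164 from the start, and it also carried TATAAA at -31. No E-box match was found in the windows of TWIST2, PRRX1 or VIM, while 68.7% of the 35116 promoters of the same length in the table held a CANNTG and 20.6% held a CACCTG. TWIST2 held 4 GGGCGG matches and VIM 1, and 45% of all promoters held at least 1. None of the 4 windows held TGANTCA (7.71% of all promoters), GGAATG (14%) or a CArG box (1.29%), and PRRX1 held no match to any motif. A match is a stretch of letters and not a measured site, and a window without one says nothing of binding elsewhere.

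The target of the knockdown did not pass the test. CSRP2 measured 3.69, 4.01 and 4.35 (log2 values throughout) on siControl arrays 1 to 3 and 3.25, 3.76 and 4.26 on siCSRP2 arrays 1 to 3, so the groups overlapped, while each of the 3 pairs of equal replicate number was lower (-0.44, -0.24 and -0.09). The difference, always siCSRP2 minus siControl, was -0.26 (SE 0.26, 95% interval -0.84 to 0.32; limma, adjusted p = 0.583; 0.188 in a fit that takes equal replicate numbers as pairs, called the replicate block below). The two-sided exact permutation p was 0.5, where 3 against 3 arrays cannot go below 0.1. The target therefore gives no firm check of the labels, and siCSRP2 here means the arrays labelled so.

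Over all genes, 974 fell (6.54% of those tested) and 119 rose (0.800%) at an adjusted p under 0.05, so lower calls made up 89.1% of all calls, against 94.5% with median-centred arrays, 76.0% after quantile normalization and 77.7% after cyclic loess. At an unadjusted p under 0.05, 17.4% were lower and 6.32% higher. Falls were more frequent among bright genes: of the 7442 genes above the median brightness 12.7% were called lower. Their median difference was -0.15, beside 0.02 over all genes. The value distributions differed too: over all probe sets the SD was 1.35 to 1.38 on siControl and 1.29 to 1.32 on siCSRP2 arrays. Array medians were 2.70 to 2.76 and 2.80 to 2.82. The 85 keratin-associated protein genes used below as a low-signal reference had a median difference of 0.12. How far these array-wide differences set the calls was not tested. siControl 3 stood apart from its group: on the first principal component (63.2% of the variance) it lay at -2.05, the other controls at -31.5 and -31.2 and the siCSRP2 arrays between 14.01 and 30.7. Among markers of such a line, FN1 lay at 11.1, AXL at 8.32 and CD44 at 8.29 on siControl arrays, with ESR1 (2.57), PGR (2.43), KRT19 (2.40) and FOXA1 (2.48) below the median of all genes (2.99). EPCAM (3.21) and GATA3 (3.65) lay above that median. CD14 of blood cells, and PECAM1 and VWF of endothelium, lay between 2.41 and 2.65 in both groups. CDH1, CDH2, PTPRC, CD3E and CDH5 were not analysed here.

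All 5 members measured lower on every siCSRP2 array than on every siControl array. Each of the 3 pairs of arrays with the same replicate number was therefore bound to be lower too. SNAI2, VIM and S100A4 fell at an adjusted p under 0.05 over all genes, by 2.32-fold, 1.77-fold and 1.70-fold, while TWIST2 (1.75-fold lower) and PRRX1 (1.36-fold lower) did not pass, though both did with the replicate block and under some other processing choices given below. The background is 6.54% of genes called lower without the block (12.7% of those above the median brightness, as all 5 members are) and 13.1% with it, and 16.2% of all genes had siCSRP2 arrays wholly below siControl arrays. Since the members were picked on this contrast, nothing is read from their share. In RNA of whole cultures, less transcript in each cell and fewer cells that make it cannot be told apart.

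**Figure D1:**
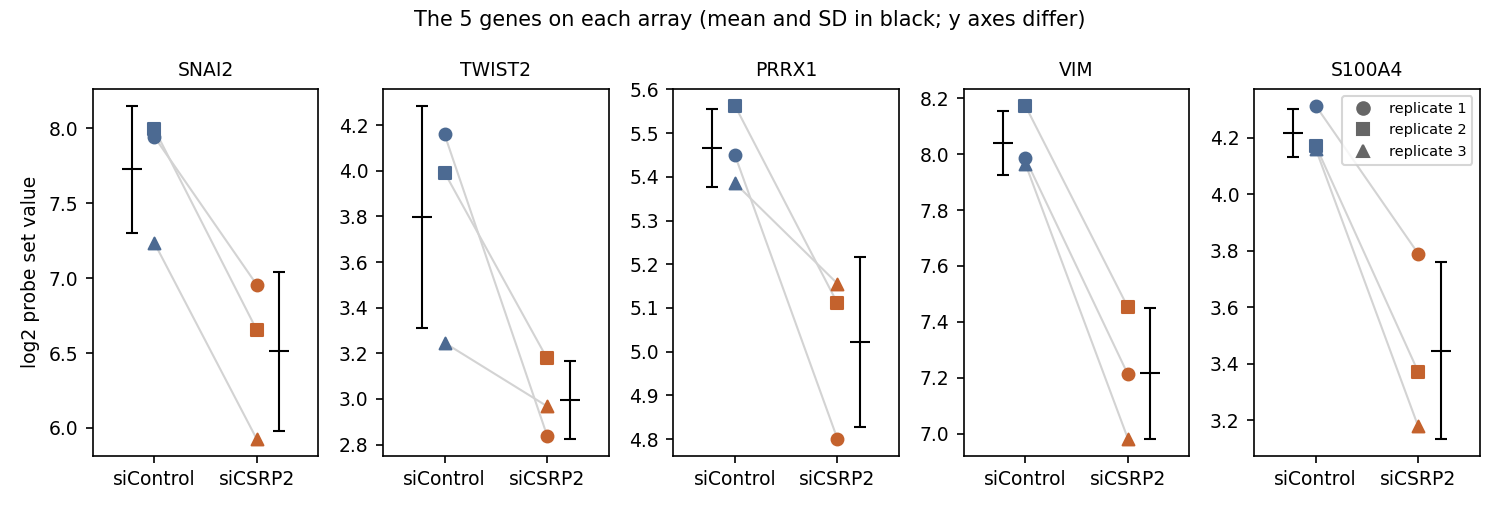
Log2 probe set values (y axis, a different range in each panel) of SNAI2, TWIST2, PRRX1, VIM and S100A4 on the 3 siControl and 3 siCSRP2 arrays. Symbols mark replicate numbers, grey lines join equal numbers, and black bars are group means with SD (n = 3). Every siCSRP2 point lies below every siControl point of its gene, with the narrowest gap for TWIST2 (0.07) and the widest for VIM (0.51).

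SNAI2 encodes the zinc finger repressor Slug. It measured 7.95, 8.0 and 7.24 on siControl arrays 1 to 3 and 6.96, 6.65 and 5.93 on siCSRP2 arrays 1 to 3. The third array of each group was the lowest of its group, and siControl 3 lay closer to siCSRP2 1 than to the other controls. Group means were 7.73 ± 0.42 and 6.51 ± 0.53 (SD, n = 3), a difference of -1.21 (SE 0.28, 95% interval -1.86 to -0.57; limma, adjusted p = 0.0394). Within pairs of equal number the differences were -0.99, -1.34 and -1.31, closer together than the arrays of either group, and the fit with the replicate block gave an adjusted p of 0.00106. SNAI2 was not called in the fits lacking siControl 1 (adjusted p = 0.144), siControl 2 (0.167), siCSRP2 2 (0.109) or siCSRP2 3 (0.11), nor after quantile normalization (0.064) or cyclic loess (0.0603), with differences from -1.29 to -0.92 in these fits.

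TWIST2 encodes a basic helix-loop-helix factor also called Dermo1. It measured 4.16, 3.99 and 3.25 on siControl arrays and 2.84, 3.18 and 2.97 on siCSRP2 arrays, so siControl 3 sat nearly level with siCSRP2 2. The means were 3.80 ± 0.49 and 2.99 ± 0.17 (SD, n = 3), and the difference of -0.80 (SE 0.22, 95% interval -1.32 to -0.29) did not pass (limma, adjusted p = 0.0659, and 0.0224 with the block). The pairs spread widely, from -1.32 in pair 1 through -0.81 in pair 2 to -0.28 in pair 3. Without siControl 3 the difference was -1.08 and passed (adjusted p = 0.00148).

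PRRX1 encodes a paired-related homeobox factor of mesenchyme. It measured 5.45, 5.56 and 5.39 on siControl arrays and 4.80, 5.11 and 5.16 on siCSRP2 arrays. The controls were tight here and siControl 3 was only slightly the lowest, while siCSRP2 1 was the low array of its group. The means were 5.47 ± 0.09 and 5.02 ± 0.19 (SD, n = 3), and the difference of -0.44 (SE 0.13, 95% interval -0.74 to -0.15) did not pass (limma, adjusted p = 0.0731, and 0.0426 with the block). It was the smallest difference of the 5 and the one most affected by scaling: -0.29 after quantile normalization (adjusted p = 0.19) and -0.30 after cyclic loess, against -0.53 after median centring, where it passed (0.0417). It also passed without siControl 3 (-0.48, adjusted p = 0.0479).

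VIM, the vimentin gene, measured 7.98, 8.17 and 7.97 on siControl arrays and 7.21, 7.45 and 6.98 on siCSRP2 arrays. Both groups were compact, and the gap between them was larger than the range of either. The means were 8.04 ± 0.11 and 7.22 ± 0.23 (SD, n = 3), with a difference of -0.82 (SE 0.14, 95% interval -1.15 to -0.50; limma, adjusted p = 0.0149, and 0.00334 with the block). VIM kept its call under each scaling tried, and lost it without siControl 1 (adjusted p = 0.0588), siControl 2 (0.0813) or siCSRP2 3 (0.0517).

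VIM was the member with further probe sets, 2 of them, which the choice of a probe set had left out. Probe set 16712272 measured 6.57, 6.91 and 6.48 on siControl arrays and 5.39, 5.90 and 5.67 on siCSRP2 arrays, a difference of -1.0 (SE 0.16). Probe set 16712274 measured 6.78, 6.51 and 6.61 and then 6.16, 5.65 and 5.74, a difference of -0.78 (SE 0.15). Both lay wholly below their controls and both passed the fit over all 16098 named probe sets (limma, adjusted p = 0.0144 and 0.0247), in which 5.81% were called lower. What these probe sets read is less certain than their label: 9 of the 10 nearest identifiers with a known strand belonged to minus-strand genes, whereas VIM is a plus-strand gene and all 10 neighbours of the chosen probe set 16702767 were plus-strand genes. RefSeq lists an antisense RNA, VIM-AS1, that overlaps the start of VIM, and whether these probe sets detect VIM or an antisense transcript was not tested.

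**Figure D2:**
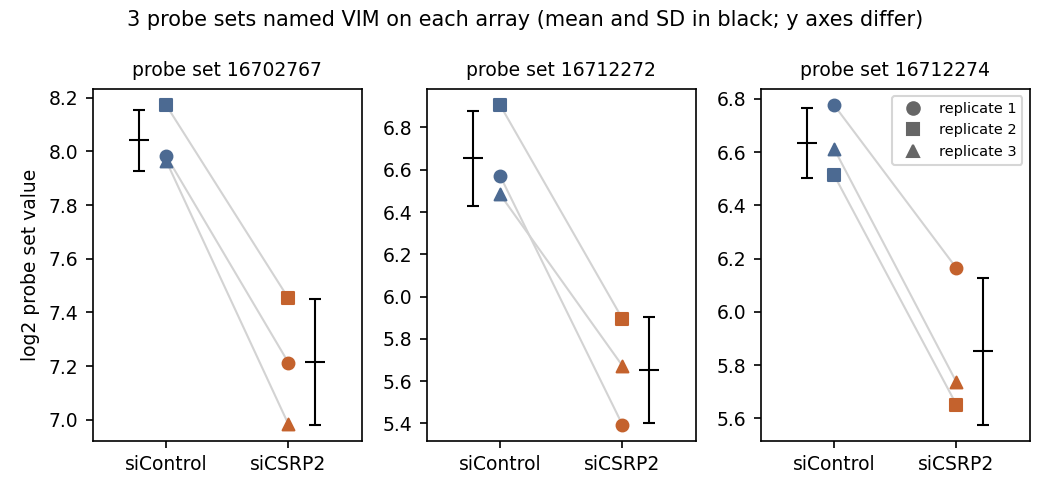
Log2 values (y axis, a different range in each panel) of the 3 probe sets named VIM on the 3 siControl and 3 siCSRP2 arrays, with symbols for replicate numbers and black bars for mean and SD (n = 3). Each probe set is lower on all siCSRP2 arrays, and the order of the arrays within a group differs between probe sets: siControl 2 is the highest control on 16702767 and 16712272 and the lowest on 16712274.

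S100A4 measured 4.31, 4.17 and 4.16 on siControl arrays and 3.79, 3.37 and 3.18 on siCSRP2 arrays. The controls lay within a narrow band while the siCSRP2 arrays spread out beneath them. The means were 4.21 ± 0.09 and 3.45 ± 0.31 (SD, n = 3), with a difference of -0.77 (SE 0.16, 95% interval -1.13 to -0.40; limma, adjusted p = 0.0274, and 0.00599 with the block). 4 of the 6 fits that left out 1 array did not call S100A4: those lacking siControl 1 (adjusted p = 0.109), siControl 2 (0.108), siCSRP2 2 (0.106) and siCSRP2 3 (0.0918).

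Brightness sets how far the members can be read. SNAI2 and VIM ranked at percentiles 98.2 and 99.0 of all genes by mean value, PRRX1 at 90.2, S100A4 at 72.5 and TWIST2 at 63.1. As a reference for low signal, chosen after the data were seen, 85 keratin-associated protein genes of the hair shaft had a median mean of 2.54 and a 95th percentile of 3.50. The siCSRP2 means of TWIST2 (2.99) and S100A4 (3.45) lay under that percentile, and those of the other 3 members above it. For TWIST2 and S100A4 a fold near background can understate the change.

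siControl 3 was the lowest control for all 5 members, by a wide margin for SNAI2 and TWIST2 and barely for S100A4. Without it the differences were -1.46 for SNAI2, -1.08 for TWIST2, -0.48 for PRRX1, -0.86 for VIM and -0.80 for S100A4. Each was larger in size than with it, which was fixed in advance, because leaving out the lowest control raises the control mean. All 5 passed in that fit, which called 2193 of the 14884 genes lower, against 974 as deposited. On the siCSRP2 side no array was low throughout: siCSRP2 3 was the lowest for SNAI2, VIM and S100A4, and siCSRP2 1 for TWIST2 and PRRX1.

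The nearest relatives of the 3 factors did not pass the test, and their values stood as follows. SNAI1, the founding SNAIL repressor, measured 3.36, 3.77 and 3.55 on siControl and 3.22, 3.11 and 3.34 on siCSRP2 arrays, a difference of -0.33 (SE 0.13, limma, adjusted p = 0.169). TWIST1 measured 3.38, 3.58 and 3.61 and then 3.35, 3.09 and 3.28, a difference of -0.29 (SE 0.12, adjusted p = 0.192). For both genes the groups did not overlap, though the margin was 0.02 for SNAI1 and 0.04 for TWIST1. Of all genes, 16.2% had siCSRP2 arrays wholly below siControl arrays. PRRX2 measured 3.36, 3.12 and 2.84 and then 2.61, 2.57 and 2.62, a difference of -0.51 (SE 0.14, adjusted p = 0.0658), and it fell with the replicate block (0.035). SNAI3 (0.05, SE 0.12) and the zinc finger homeobox repressors ZEB1 (-0.09, SE 0.13) and ZEB2 (0.04, SE 0.15) had overlapping groups, with 95% intervals of -0.22 to 0.32, -0.38 to 0.20 and -0.29 to 0.37. The siCSRP2 means of SNAI1 (3.22), TWIST1 (3.24), PRRX2 (2.60) and SNAI3 (2.92) lay under the low-signal percentile of 3.50. Their differences can therefore understate a change. Those of ZEB1 (4.64) and ZEB2 (4.41) lay above it. Whether any relative differed from the member of its family was not tested.

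**Figure D3:**
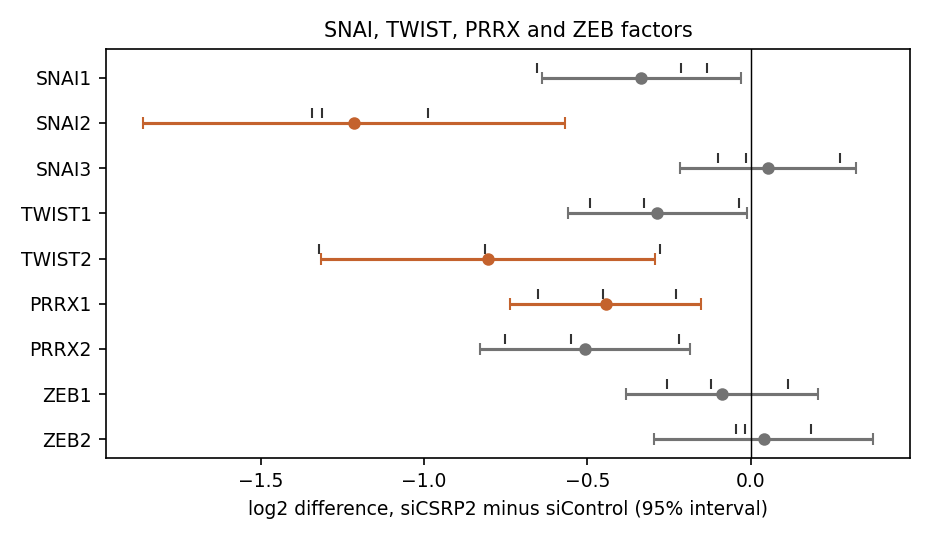
Log2 difference, siCSRP2 minus siControl (x axis), with its 95% interval from the fit over all genes, for 9 transcription factors (y axis); members are orange and relatives grey, and the ticks above each point are the 3 pairs of equal replicate number. SNAI2 lies furthest from 0 at -1.21, and the intervals of SNAI3, ZEB1 and ZEB2 include 0.

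Of 36 measured factors linked to the transition, 33 were not members. 3 of these fell and none rose, leaving 30 that did not pass (9.09% fell, against 6.54% of all genes; limma). At an unadjusted p under 0.05, 8 of the 33 were lower and 2 higher (17.4% and 6.32% of all genes). Among the 20 above the median brightness, the 3 falls make 15%, near the 12.7% of all such genes. SOX4, an SRY-box factor of progenitor cells, fell 1.82-fold (5.29 ± 0.25 to 4.42 ± 0.03, SD, n = 3; adjusted p = 0.0125). The ETS factor ETV1 fell 1.68-fold (-0.74, adjusted p = 0.028), a call lost after quantile normalization (0.0635) and cyclic loess (0.0578). TCF4, an E-protein with which TWIST proteins pair on DNA, fell 1.62-fold (-0.70, adjusted p = 0.0315), to a siCSRP2 mean of 3.17. That mean lies under the low-signal percentile of 3.50, so the fold of TCF4 can understate the change. The replicate block added PRRX2 and SOX9 (-0.44, adjusted p = 0.0386) for 5 falls (15.2%, against 13.1% of all genes). The median difference was -0.09 over the 33 and -0.16 over the 20 brighter ones, the latter beside -0.15 for all genes above the median brightness.

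Effectors of the mesenchymal state included several falls. Of 43 listed genes 18 had a named probe set; among the other 16, falls numbered 5 and rises 0, and 11 did not pass (31.2% fell, against 6.54% of all genes), with 7 lower and 1 higher at an unadjusted p under 0.05 (17.4% and 6.32% of all genes). Of the 16, 15 lay above the median brightness, where the 5 falls make 33.3% against 12.7% of all such genes. The receptor kinase AXL fell 3.32-fold (-1.73, SE 0.24, adjusted p = 0.00833) and the matrix proteoglycan lumican, LUM, 2.69-fold (-1.43, SE 0.20, adjusted p = 0.00882). The TGF-beta co-receptor endoglin, ENG, fell 2.29-fold (-1.19, adjusted p = 0.0328), the surface glycoprotein THY1 1.71-fold (-0.77, adjusted p = 0.032; 0.0639 after quantile normalization and 0.0575 after cyclic loess) and fibronectin, FN1, 1.5-fold (-0.59, adjusted p = 0.0299). The block called the same number, 5 (31.2%, against 13.1% of all genes). The median was -0.30 over the 16 and -0.32 over the brighter 15. AXL and FN1 were among the genes whose falls were known when the list was written, so nothing is read from the share that fell.

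Epithelial genes that SNAIL, ZEB and TWIST factors are known to repress showed no rise that passed. Of 30 measured, none rose and none fell (limma; 0.800% and 6.54% of all genes), and 4 were higher and 2 lower at an unadjusted p under 0.05 (6.32% and 17.4% of all genes). The median difference was 0.06 over the 30 and 0.01 over the 12 above the median brightness. The claudin CLDN3 went from 3.82 ± 0.07 in siControl to 4.15 ± 0.05 in siCSRP2 (SD, n = 3; 0.33, adjusted p = 0.0919), and GRHL2, a factor that maintains epithelial identity, 2.47 ± 0.05 and 2.79 ± 0.11 (0.32, adjusted p = 0.114), which is a dim signal. The keratin KRT18 measured 8.11 ± 0.40 and 7.37 ± 0.21 (-0.74, adjusted p = 0.0635) and fell with the block (0.00746). CLDN3 rose after quantile normalization (0.48, adjusted p = 0.0337) and cyclic loess (0.47, 0.0375), and no other gene of this list did.

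**Figure D4:**
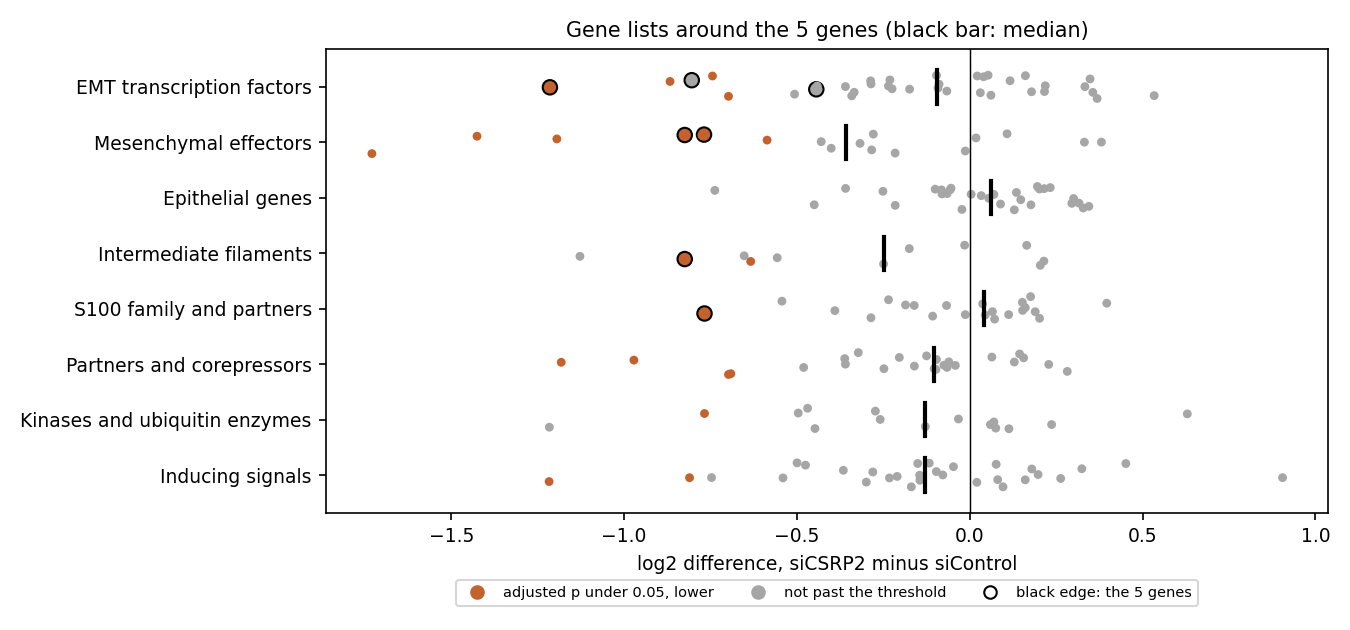
Log2 difference, siCSRP2 minus siControl (x axis), of every measured gene of 8 lists (y axis, points spread vertically at random); orange points are past an adjusted p of 0.05 and lower, grey points are not past it, a black edge marks the 5 members and black bars are list medians, members included. No point is past the threshold on the higher side, and the orange points other than members are 15 genes, with TCF4 in 2 lists.

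Around vimentin, 10 other genes of intermediate filaments and their linkers were measured; 1 fell, none rose and 9 did not pass (10% fell, against 6.54% of all genes; 4 lower and 0 higher at an unadjusted p under 0.05, against 17.4% and 6.32% of all genes). The 1 fall was among 7 genes above the median brightness (14.3%, against 12.7%). The median difference was -0.21 over the 10 and -0.56 over the 7 brighter ones, the latter beside -0.15 for all genes above the median brightness. LMNA, which encodes the nuclear lamins A and C, fell 1.55-fold (4.81 ± 0.17 to 4.18 ± 0.05, SD, n = 3; limma, adjusted p = 0.0196). The B-type lamins LMNB1 (-1.13, adjusted p = 0.0502) and LMNB2 (-0.56, 0.0658) and the linker plectin, PLEC (-0.65, 0.0556), which ties vimentin to other filaments, passed with the block (0.00539, 0.0378 and 0.031), for 4 falls (40%, against 13.1% of all genes). All 4 lay above the median brightness, where falls were more frequent in the main fit. In every list the 13.1% covers genes of any brightness, and a block share among brighter genes is not given here. LMNB1 on siControl 3 (3.68) lay near the siCSRP2 arrays (3.06 to 3.57) and away from the other controls (4.80 and 4.74). The neural filament gene nestin, NES, measured 0.21 higher (adjusted p = 0.284).

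Around S100A4, 21 other S100 genes and partners were measured, and none rose or fell (limma; 0.800% and 6.54% of all genes), with 1 higher and 1 lower at an unadjusted p under 0.05 (6.32% and 17.4% of all genes). The median difference was 0.04 over the 21 and -0.17 over the 10 above the median brightness, so it differed in sign. The same held for the array as a whole, with 0.02 over all genes and -0.15 over those above the median brightness. S100A4 sits in a cluster of S100 genes, where its neighbours S100A3 (-0.54, SE 0.25, adjusted p = 0.235), S100A5 (0.16, SE 0.15, 0.562) and S100A6 (-0.11, SE 0.10, 0.578) had overlapping groups. S100A6 stayed within 5.57 ± 0.07 and 5.46 ± 0.08 (SD, n = 3). The partner ANXA2, an annexin, measured -0.39 (adjusted p = 0.183). With the block S100A12 rose (0.40, adjusted p = 0.0444; 2.67% of all genes rose in that fit), at values of 2.18 to 2.71 that lie below the median of all genes.

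Genes for the protein partners of SNAIL and TWIST factors included falls. Of 25 measured, 4 fell, none rose and 21 did not pass (16% fell, against 6.54% of all genes; 8 lower and 1 higher at an unadjusted p under 0.05, against 17.4% and 6.32% of all genes), and the median was -0.10. Among the 23 above the median brightness the 4 falls make 17.4%, against 12.7%, and the median was -0.12. RBBP4, a histone-binding subunit of several repressor complexes, fell 2.27-fold (5.81, 5.91 and 5.60 on siControl and 4.58, 4.71 and 4.49 on siCSRP2 arrays; -1.18, SE 0.12, limma, adjusted p = 0.00316). CHD4, the remodelling ATPase of the NuRD complex, fell 1.96-fold (-0.97, adjusted p = 0.016), and KDM1A, the histone demethylase that SNAIL proteins recruit, 1.61-fold (-0.69, adjusted p = 0.0164). TCF4 was the remaining fall, and the block added the deacetylase HDAC1 (-0.48, adjusted p = 0.0254), for 20% against 13.1% of all genes. The histone methyltransferase KMT5A (0.28, adjusted p = 0.133) rose after quantile normalization (0.47, 0.0429) and cyclic loess (0.44, 0.0496).

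Of 15 measured kinases and ubiquitin enzymes that set SNAIL and TWIST protein levels, 1 fell, none rose and 14 did not pass (6.67% fell, against 6.54% of all genes; 4 lower and 0 higher at an unadjusted p under 0.05, against 17.4% and 6.32% of all genes), with a median of -0.13. FBXL5, an F-box protein that targets SNAIL, fell 1.70-fold (-0.77, limma, adjusted p = 0.02; 0.0507 after quantile normalization). With the block the deubiquitinase USP5 (-1.22, adjusted p = 0.0034), the cullin CUL1 (-0.45, 0.0323), the kinase MAPK3 (-0.47, 0.0412) and FBXO22 (-0.50, 0.044) also fell, and the deubiquitinase USP37 rose (0.63, 0.0357). Of 30 genes for signals that induce these factors, 2 fell, none rose and 28 did not pass (6.67% fell; 5 lower and 1 higher at an unadjusted p under 0.05), with a median of -0.13. In both lists the falls make 8.33% of the genes above the median brightness, under the 12.7% of all such genes. The falls among the signals were the growth factor BMP4, which fell 2.32-fold (4.89 ± 0.32 to 3.67 ± 0.33, SD, n = 3; adjusted p = 0.0144), and the hypoxia factor EPAS1, 1.75-fold (-0.81, adjusted p = 0.0172). With the block STAT3 (-0.50, adjusted p = 0.0275), SMAD5 (-0.48, 0.0254) and the NOTCH ligand JAG1 (-0.75, 0.0353) were added, for 5 falls in each of these lists (33.3% of the enzymes and 16.7% of the signals, against 13.1% of all genes).

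The 15 genes outside the members that fell in these lists depended on which arrays were kept. All 15 passed without siControl 3 and 11 without siCSRP2 1. Without siControl 1, siCSRP2 2 or siCSRP2 3, 5 passed in each case, and without siControl 2 only RBBP4 did. RBBP4 was also the only one of the 15 that passed in each of the 6 fits, and 12 of the 15, all but ETV1, THY1 and FBXL5, passed under all 3 scalings. Scaling also added calls beyond these 15. NOTCH3, of the inducing signals (-0.54 as deposited, limma, adjusted p = 0.0737), fell under all 3 scalings (-0.61 after quantile normalization, -0.63 after the others). PRRX2 fell after cyclic loess and median centring. KRT18, LMNB1, LMNB2, PLEC and STAT3 fell after median centring alone. The added rises were CLDN3 and KMT5A, after quantile normalization and cyclic loess.

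**Figure D5:**
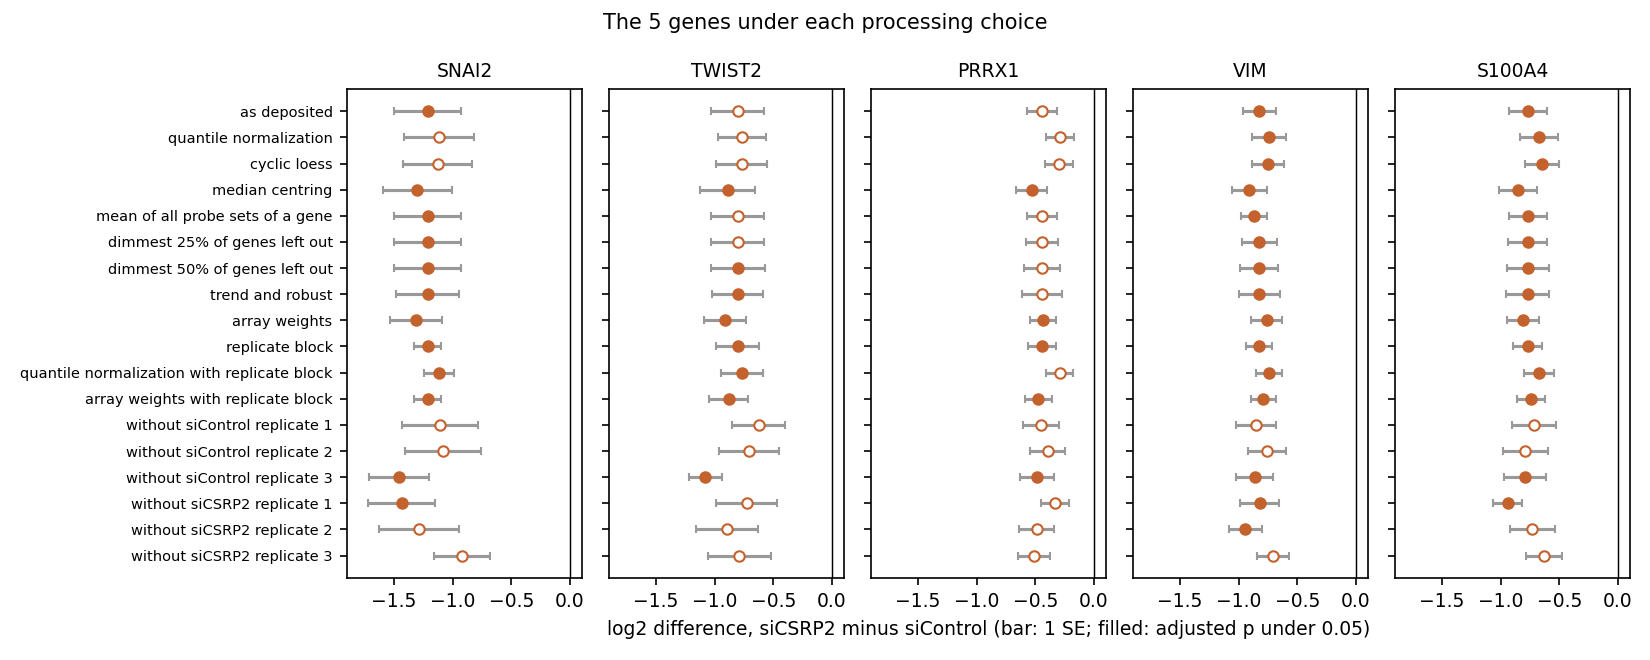
Log2 difference, siCSRP2 minus siControl, with 1 SE (x axis) for each of the 5 members (panels) as deposited and under 17 other processing choices (y axis); filled points are past an adjusted p of 0.05. No difference reaches 0, and the range is widest for SNAI2, from -1.46 to -0.92.

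The genes whose values ran most closely with each member were ranked by Pearson's r over the 6 arrays among 7441 other genes above the median brightness. The r includes the difference between the groups, so it is a description of likeness and carries no p. For SNAI2 the closest were the mitochondrial carrier SFXN3 (r = 0.999), the pseudogene HERC2P3 (0.998), whose near-identical copies may share its probes, and the molybdopterin synthase MOCS2 (0.997), and 1219 genes had an r above 0.9. For TWIST2 they were the RNA-binding protein HNRNPR (0.997), C18orf54 (0.997) and TMEM185B (0.995), none of which passed the test between groups (adjusted p = 0.183, 0.0878 and 0.156). All 3 share with TWIST2 the low value of siControl 3 within its group.

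For PRRX1 the closest were WDTC1 (0.996), the elongation factor SUPT6H (0.994) and the clock gene PER3 (0.993). For VIM they were SMAP1 (0.997), the arginine methyltransferase PRMT2 (0.996) and the muscle glycogen synthase GYS1 (0.995). For S100A4 they were the haem pathway enzymes BLVRA (0.996) and UROD (0.995) and the adaptor SHC3 (0.995). The number of genes with an r above 0.9 was 896 for TWIST2, 350 for PRRX1, 708 for VIM and 653 for S100A4. No member was among the 3 closest genes of another.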

How the data were processed

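Sample titles gave the group and the replicate number. Per the labels' protocols, wells of a 6-well plate started with 150000 cells, 100000 went on to a 24-well plate, and labelling used 100 ng of RNA. Whether replicates were separate cultures is not stated, so the p-values cover the spread among these arrays alone, and that spread may be technical. The values are those the authors deposited, taken as log2 from their range. The submitters' processing notes name Partek; the background correction, summarisation, normalization and build were not given in the sources at hand.

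Of 53617 probe sets, 16098 had 1 gene symbol in the platform annotation, 0 had several and 37519 had none listed there. All 16098 matched RefSeq (GRCh38.p14), used for current symbols, strands and promoter windows. The comparison used limma 3.58.1 under R 4.3.3 (lmFit, eBayes, with group as its one term), adjusted by Benjamini-Hochberg over all 14884 genes, two-sided, threshold 0.05. No p was adjusted over a list and no set test was run. The fit was also run on simulated data with independent noise for each gene and array. That setting lacks deviations shared by the genes of an array, so it does not check how such deviations affect the calls. The members, lists and alternatives were chosen with earlier results of these data known. Beside the members, the genes named are their relatives, CSRP2, marker genes, list genes past the threshold (or past it with the block) or with the smallest adjusted p, and the 3 closest genes by r; S100A5, S100A6, NES and KMT5A were chosen after their values were seen. The split of the lists at the median brightness over all 6 arrays was also added after seeing the data. Alternatives covered scaling, probe set choice, dim genes, variance model, replicate block and leaving out each array.

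Equal replicate numbers were taken as pairs. Deviations from the group means correlated at 0.305, 0.187 and 0.321 between equal numbers, and at -0.256 to 0.052 otherwise. Because deviations sum to 0 within a group, positive values for equal numbers force lower ones for the others. The contrast is therefore partly fixed and does not show that the numbers mark pairs. The labels do not tie numbers to a plate or day. No 2 arrays shared more than 2 identical values over all probe sets, so all 6 were kept as separate samples. Precision is limited by the number of arrays.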

Additional observations from a re-analysis of the deposited data

How the results depend on the processing

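The 5 members kept a negative difference in all 17 alternatives, and 3 arrays per group limit every call. Members called lower numbered 3 as deposited, 2 after quantile normalization or cyclic loess, and 5 after median centring, with array weights, with the replicate block, and with both weights and block. Calls over all genes (974 lower, 119 higher) became 1471 lower and 86 higher after median centring, 666 and 210 after quantile normalization, 687 and 197 after cyclic loess, 2327 lower and 597 higher with array weights, 1950 and 398 with the replicate block, 1486 and 524 with quantile normalization and the block, and 2425 and 601 with weights and the block. SNAI2 lost its call after quantile normalization (-1.12) and cyclic loess (-1.13). TWIST2 gained one after median centring (-0.89), with the dimmest 50% of genes left out (-0.80), with trend and robust fitting (-0.80), with array weights (-0.91), with the replicate block (-0.80), with quantile normalization and the block (-0.77) and with weights and the block (-0.88). PRRX1 gained one after median centring (-0.53), with array weights (-0.44), with the replicate block (-0.44) and with weights and the block (-0.48). The cause of these changes was not tested. Leaving out 1 array at a time gave 86 to 2193 lower and 5 to 427 higher calls, 0 to 5 members called, and differences of -1.46 to -0.92 (SNAI2), -1.08 to -0.62 (TWIST2), -0.51 to -0.33 (PRRX1), -0.94 to -0.71 (VIM) and -0.94 to -0.63 (S100A4). Over all genes the lowest counts came without siControl 2 and the highest without siControl 3. Among 178 other genes of the lists and families, 2767 of 2942 values kept their side of the threshold, 53 lost a call and 122 gained one. Of values past the threshold in either fit, 0 changed sign. Sign changes of values that passed in neither fit were counted as kept. Such changes occurred: after quantile normalization ZEB1 measured 0.11 and SNAI3 -0.02, each opposite in sign to the value as deposited.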
